A study of Mus musculus with 34 samples.

Results

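The genes described here encode the receptors for glutamate and GABA, the main excitatory and inhibitory transmitters of the brain. Protein-coding genes of RefSeq (GRCm38.p6, which corresponds to mm10) were taken by symbol: the AMPA receptor subunits (Gria), kainate receptor subunits (Grik), NMDA receptor subunits (Grin1, Grin2 and Grin3), metabotropic glutamate receptors (Grm), GABA-A receptor subunits (Gabra, Gabrb, Gabrg, Gabrd and Gabre), rho subunits (Gabrr) and both GABA-B receptor subunits (Gabbr1 and Gabbr2). The rule found 43 of 21631 genes on chromosomes 1 to 19 and X, 24 of them for glutamate and 19 for GABA receptors. No measured value entered the choice.

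Histone marks were profiled in mouse microglia of the hippocampus by ULI-NChIP-seq, in which native chromatin from few cells is immunoprecipitated and sequenced. Control mice (Ctrl) were compared with mice labelled FGR, and the title of the series names intrauterine growth restriction. Both groups carried 1 copy of the Tmem119-tdTomato reporter (genotype Tmem119-tdTomato+/-), which marks microglia. Replicates 1 to 3 were 3 weeks old after birth, and the label of replicate 4 gives no age. Each of H3K4me3, H3K9ac and H3K27ac had 4 libraries in Ctrl and 4 in FGR, and H3K9me3 had 3 comparable libraries in each group. The sources used here do not give how growth restriction was brought about or how the cells were isolated. Nor do the labels say whether replicates were separate animals or pools, and p-values reflect only how these samples spread, a spread that may be technical.

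AMPA, kainate and NMDA receptors are cation channels opened by glutamate and built from several subunits, whereas metabotropic receptors signal through G proteins. GABA-A receptors are chloride channels that usually join alpha, beta and gamma or delta subunits, and GABA-B receptors are G protein-coupled pairs of Gabbr1 and Gabbr2. These genes are best known from neurons, with some members, the GABA-B subunits among them, also described in microglia. H3K4me3 marks promoters that are active or poised, H3K9ac and H3K27ac mark active promoters and enhancers, and H3K9me3 marks heterochromatin.

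Promoters of members on which the results turn are shown first, because the number of CpG dinucleotides, a feature known to go with H3K4me3, varied widely among them. Each sequence runs 5′ to 3′ over 300 bases, 250 before and 50 after a transcription start of the RefSeq table (GRCm38.p6), with CG in capitals. Gabbr1 is on the plus strand at chr17:37045716-37046015, Gabrb1 on the plus strand at chr5:71657671-71657970, Gabre on the minus strand at chrX:72274672-72274971 and Grik2 on the minus strand at chr10:49788705-49789004. Grm8 is on the minus strand at chr6:28135097-28135396, Grin2d on the minus strand at chr7:45866632-45866931 and Grin1 on the minus strand at chr2:25319138-25319437. Grin1 is shown as a CpG-rich promoter on which no peak of H3K4me3, H3K9ac or H3K27ac was called in any library.
Gabbr1: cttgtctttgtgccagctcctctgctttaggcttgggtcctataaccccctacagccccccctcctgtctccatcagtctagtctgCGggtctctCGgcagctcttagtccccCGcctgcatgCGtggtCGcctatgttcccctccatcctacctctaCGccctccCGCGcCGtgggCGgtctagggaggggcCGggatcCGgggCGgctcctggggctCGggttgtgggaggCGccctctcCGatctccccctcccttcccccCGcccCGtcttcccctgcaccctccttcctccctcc
Gabrb1: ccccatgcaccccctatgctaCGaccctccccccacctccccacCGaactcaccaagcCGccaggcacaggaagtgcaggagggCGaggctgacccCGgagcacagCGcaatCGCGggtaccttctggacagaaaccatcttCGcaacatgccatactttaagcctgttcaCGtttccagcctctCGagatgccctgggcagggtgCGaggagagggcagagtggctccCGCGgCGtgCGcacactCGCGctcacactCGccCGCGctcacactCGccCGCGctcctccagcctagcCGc
Gabre: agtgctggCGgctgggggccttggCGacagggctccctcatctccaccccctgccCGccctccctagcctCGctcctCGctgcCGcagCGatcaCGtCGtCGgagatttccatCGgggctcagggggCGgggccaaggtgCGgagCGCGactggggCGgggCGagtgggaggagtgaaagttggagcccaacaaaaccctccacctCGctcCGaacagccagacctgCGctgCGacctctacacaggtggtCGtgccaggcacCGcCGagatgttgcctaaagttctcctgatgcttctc
Grik2: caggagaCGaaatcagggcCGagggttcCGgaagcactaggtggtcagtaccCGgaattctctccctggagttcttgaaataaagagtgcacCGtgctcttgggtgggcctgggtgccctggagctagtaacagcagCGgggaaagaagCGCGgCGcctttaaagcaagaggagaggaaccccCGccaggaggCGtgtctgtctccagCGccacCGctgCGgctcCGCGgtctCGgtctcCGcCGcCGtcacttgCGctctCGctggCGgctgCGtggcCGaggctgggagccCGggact
Grm8: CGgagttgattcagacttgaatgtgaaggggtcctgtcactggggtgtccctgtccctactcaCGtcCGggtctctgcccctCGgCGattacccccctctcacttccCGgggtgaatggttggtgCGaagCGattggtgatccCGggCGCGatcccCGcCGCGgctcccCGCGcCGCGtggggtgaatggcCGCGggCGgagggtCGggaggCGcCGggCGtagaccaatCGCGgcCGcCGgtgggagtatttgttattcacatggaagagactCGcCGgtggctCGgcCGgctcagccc
Grin2d: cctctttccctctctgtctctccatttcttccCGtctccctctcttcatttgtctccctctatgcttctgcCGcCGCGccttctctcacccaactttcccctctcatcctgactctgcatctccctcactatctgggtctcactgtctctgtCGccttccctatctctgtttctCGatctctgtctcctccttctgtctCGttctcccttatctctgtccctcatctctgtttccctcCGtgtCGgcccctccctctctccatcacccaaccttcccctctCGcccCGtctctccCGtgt
Grin1: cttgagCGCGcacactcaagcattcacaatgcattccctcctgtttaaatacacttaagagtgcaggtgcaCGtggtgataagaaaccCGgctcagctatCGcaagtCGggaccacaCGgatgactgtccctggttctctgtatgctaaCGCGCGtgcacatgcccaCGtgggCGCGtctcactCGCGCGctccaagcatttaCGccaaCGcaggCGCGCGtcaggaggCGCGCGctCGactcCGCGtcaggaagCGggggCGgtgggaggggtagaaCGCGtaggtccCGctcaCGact

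Values below are the summed length in kb of called peaks lying up to 2.5 kb from a gene's start or end, as mean ± SD, unless they are said to be percent of the gene body. Both ends were used because only 30 of the 43 members had an entry in the promoter table, from which the strand was taken. Genes with a window peak in 2 or more libraries entered a limma test, whose p-values were adjusted by Benjamini-Hochberg across every gene entered and called under 0.05. The share of all tested genes called the same way is given as the background beside each first count. In a bulk sample, fewer cells carrying a mark and less of it per cell cannot be told apart.

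Some properties of the lists bear on every comparison. Sequencing depth is unknown. The lowest local background in reads, solved from each list's fold and p-values as a substitute for depth, lay between 2.84 and 3.58 in Ctrl H3K4me3 libraries and between 0.846 and 1.16 in FGR ones. For H3K9ac the ranges were 2.35 to 2.63 (Ctrl) against 0.523 to 0.61 (FGR), and H3K27ac had 2.39 to 2.75 (Ctrl) against 0.621 to 0.767 (FGR). Group and background level therefore cannot be told apart. Covered length across genes in FGR H3K4me3 lists had a mean r of 0.908 with Ctrl H3K9ac and of 0.822 with Ctrl H3K4me3, while FGR H3K9ac lists correlated at 0.757 with Ctrl H3K9ac and 0.65 with Ctrl H3K4me3. Marks are given as labelled throughout, and whether the H3K4me3 and H3K9ac labels were exchanged was not tested. All 14 microglia markers listed, Tmem119 and P2ry12 among them, had H3K27ac peaks in all 8 libraries.

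In Ctrl, most receptor genes lacked a peak near their ends. No H3K4me3 peak was called there in any Ctrl library at 36 of the 43 members, and the same held for 37 members with H3K9ac and 37 with H3K27ac. A peak in every Ctrl library was called at 3 members for H3K4me3, 5 for H3K9ac and 4 for H3K27ac. Over all genes the shares were 42.1%, 53.7% and 50.4%. Across the 3 marks and 24 libraries, 13 members had no peak at all near their ends. Among them were the GABA-A genes Gabra3, Gabra6, Gabrg1 and Gabrg3, the rho gene Gabrr1, and the glutamate receptor genes Gria4, Grik1, Grin2b, Grm5 and Grm7. Grin2b encodes a glutamate-binding NMDA subunit of the young brain. H3K4me3 was missing from all 8 libraries at 21 of 43 members, against 33.7% of all genes. H3K9ac was missing at 14 of 43, against 23.7%, and H3K27ac at 36 of 43, against 42%.

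Only Gabbr1, Grik5 and Grin2d had all 3 marks in every Ctrl library, and at Grik5 and Grin2d nearly all of the marked length near the ends lay outside the receptor gene. At Grin2d, an NMDA subunit gene next to Grwd1 and Kdelr1, window coverage inside the gene measured 0 kb in Ctrl for each of the 3 marks, against 1.44 kb of H3K4me3, 1.72 kb of H3K9ac and 1.68 kb of H3K27ac beyond its ends. At Grik5, a kainate subunit gene whose upstream window overlaps the zinc finger gene Zfp574, all 2.11 kb of Ctrl H3K27ac and all 1.87 kb of Ctrl H3K9ac also lay beyond the end. Gabbr1, the GABA-binding subunit of the GABA-B receptor, was the member with all 3 marks inside the gene near its ends in every Ctrl library, and no other protein-coding gene had an end in its windows.

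**Figure D1:**
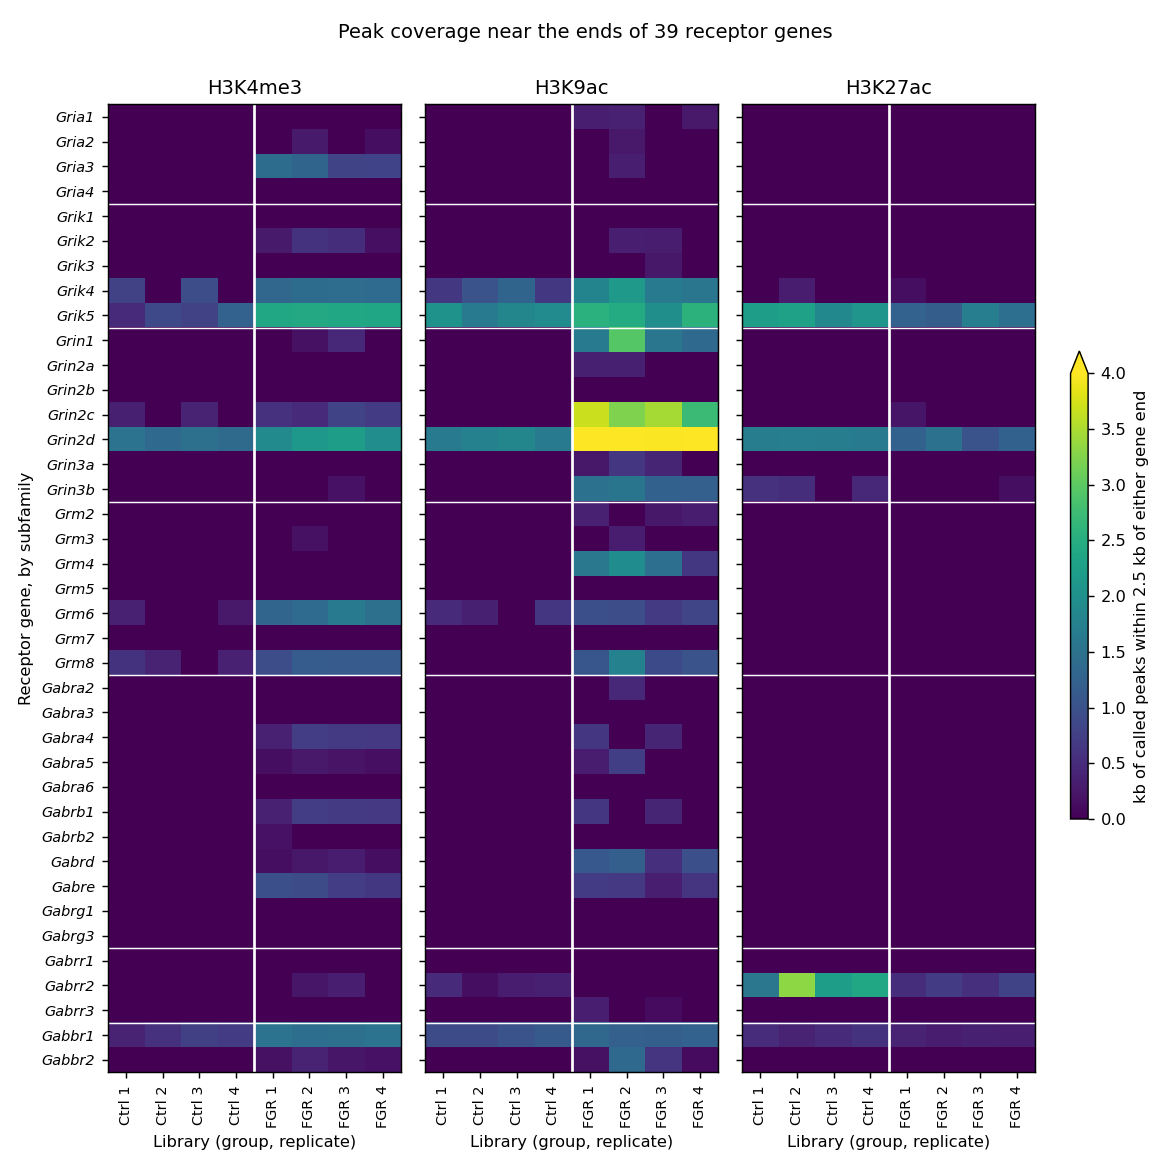
Each row is 1 of 39 receptor genes, ordered by subfamily, and each column 1 library of Ctrl or FGR; colour gives the peak length in kb near both ends of the gene, from 0 to 4 kb, with longer values at the top colour. Most rows are dark in Ctrl, 15 of them have H3K4me3 and 13 have H3K9ac in every FGR library, and 4 genes have H3K27ac in every FGR library.

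H3K4me3 near receptor gene ends was longer in FGR at 16 of the 19 members tested and shorter at 0. The background was 95.5% of 14043 genes with more and 0% with less, so the receptor genes moved with nearly all genes. At an unadjusted p under 0.05, limma also called 16 more and 0 less. The median difference over the 19 members tested was 0.608 kb, against 0.887 kb over all genes tested. After quantile normalization, which makes the libraries' distributions equal and so removes a shift shared by most genes, the split turned to 1 member with more (Grm6) and 8 with less, against backgrounds of 15.8% and 24.2%.

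Both GABA-B subunit genes had longer H3K4me3 coverage in FGR. Gabbr1 (chromosome 17, 37045966 to 37074305) had 0.378, 0.572, 0.761 and 0.707 kb in the 4 Ctrl libraries and 1.52, 1.44, 1.48 and 1.52 kb in the 4 FGR libraries. Every FGR library was above every Ctrl library, and the difference was 0.885 kb (SE 0.0925, limma adjusted p = 2.57e-05). The merged region at its 5′ end, 37045524 to 37047078, had a peak in all 8 libraries, but only FGR peaks reached back over the promoter shown above, in 4 of 4 libraries against 0 of 4. Gabbr2, whose protein brings the pair to the cell surface and couples it to G proteins, was at 0 in every Ctrl library and had 0.179, 0.397, 0.239 and 0.196 kb in FGR (adjusted p = 0.00717, limma). The region with a peak in all 4 FGR libraries was at its 3′ end, at 46664579 to 46665011 on chromosome 4, and 1 FGR library had a peak on its promoter, which has 46 CpG.

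Among the GABA-A genes, 6 of the 6 tested were covered more and all 6 were at 0 in every Ctrl library. They entered the test through FGR alone, so this count and the p-values below describe the lists and support nothing about GABA-A genes. Not all of them are independent places. Gabra4 and Gabrb1, head to head on chromosome 5, share the region 71657626 to 71658374, with 0.362, 0.731, 0.676 and 0.662 kb in FGR for both (adjusted p = 0.000193, limma). Gabra5, for an alpha subunit of receptors outside synapses in the hippocampus, had 0.149, 0.275, 0.212 and 0.169 kb (adjusted p = 0.0113, limma). Gabre, for the epsilon subunit, has no other gene in its windows and had 0.971, 0.93, 0.726 and 0.649 kb over its promoter in FGR (adjusted p = 2.72e-05, limma). Gabrd, for the delta subunit of receptors outside synapses, had 0.149, 0.262, 0.298 and 0.154 kb at an end shared with Cfap74 (adjusted p = 0.0106, limma).

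The ionotropic glutamate receptor genes gave fewer places. Gria3, an AMPA subunit gene on chromosome X, was at 0 in Ctrl and had 1.41, 1.29, 0.825 and 0.799 kb in FGR (adjusted p = 0.000102, limma), in a region from 41400514 to 41402081. Gria2, for the subunit that limits calcium entry through AMPA receptors, had 0, 0.283, 0 and 0.15 kb in FGR and 0 in Ctrl, and did not pass the test (adjusted p = 0.216, limma). Grik2, for a kainate subunit that can form channels by itself, was at 0 in Ctrl and had 0.287, 0.592, 0.516 and 0.171 kb in FGR (adjusted p = 0.00447, limma). The Grik2 region, 49788399 to 49788990 on chromosome 10, overlaps the promoter shown above, which has 26 CpG against a median of 13 over 21045 promoters of the table. Grik4, a partner subunit of the high-affinity kind, went from 0.435 ± 0.506 kb to 1.39 ± 0.0538 kb (SD, n = 4 each), and its Ctrl values were 0.793, 0, 0.946 and 0 kb.

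Grik5, the other high-affinity kainate subunit gene (chromosome 7, 25009849 to 25075694), had 0.492, 0.89, 0.795 and 1.26 kb in Ctrl and 2.38, 2.41, 2.38 and 2.36 kb in FGR. The groups did not overlap (difference 1.52 kb, SE 0.145, limma adjusted p = 1.55e-05). Of the FGR length, 1.74 kb lay beyond the gene ends. Inside the gene, a region from 25072326 to 25073013, had a peak in 4 FGR and 0 Ctrl libraries, and in 1 of the 4 it reached the promoter entry of Grik5.

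Of the NMDA subunit genes, Grin2c and Grin2d were covered more. Grin2d had 1.52, 1.36, 1.48 and 1.39 kb in Ctrl and 1.91, 2.14, 2.25 and 1.97 kb in FGR (difference 0.63 kb, SE 0.0911, limma adjusted p = 0.000168). Coverage inside the gene accounted for 0 kb in Ctrl and 0.216 kb in FGR of these means. Grin1, for the subunit that every NMDA receptor needs, was at 0 in Ctrl and had 0, 0.174, 0.451 and 0 kb in FGR (adjusted p = 0.178, limma), all at its 3′ end, near Tmem210 and Lrrc26. Its promoter, with 33 CpG, had no peak of the 3 marks in any library.

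Among metabotropic genes, Grm6 and Grm8 were covered more. Grm6, a group III receptor best known from the retina, had 0.366, 0, 0 and 0.279 kb in Ctrl and 1.3, 1.39, 1.63 and 1.48 kb in FGR, and had the smallest p of the members (difference 1.29 kb, SE 0.114, limma adjusted p = 1.01e-05). It was also the single member covered more after quantile normalization. Grm8, another group III receptor, had 0.581, 0.393, 0 and 0.374 kb in Ctrl and 0.946, 1.16, 1.15 and 1.15 kb in FGR (adjusted p = 0.000337, limma), over the promoter shown above. Grm2 and Grm4 had no H3K4me3 peak near their ends in any library, and Grm3 had 1 in a single FGR library.

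A set of 9 members had H3K4me3 near their ends in every FGR library and in no Ctrl library, among them Gabbr2, Gabra4, Gabra5, Gabrb1, Gabrd, Gabre, Gria3 and Grik2. The background for this pattern was 9.39% of genes tested. A gene with no Ctrl peak could enter the test only through FGR, so the count is a description. None of the 9 had an H3K9ac peak in a Ctrl library either, so the pattern is the same against Ctrl libraries of either mark. Their strongest peaks ranked low to middling within the FGR lists by the authors' −log10 q. The median percentile over FGR libraries was 15.8 at Gabra5 and at Gabrd, 27.1 at Gabbr2, 39.9 at Gria3, 44.9 at Gabre, 52.1 at Grik2 and 52.5 at Gabra4 and Gabrb1, against 76 at Gabbr1. The −log10 q itself was 2.98 to 5.51 at Gabra5, 7.72 to 20.4 at Gabrb1 and 41.6 to 58.1 at Gabbr1.

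**Figure D2:**
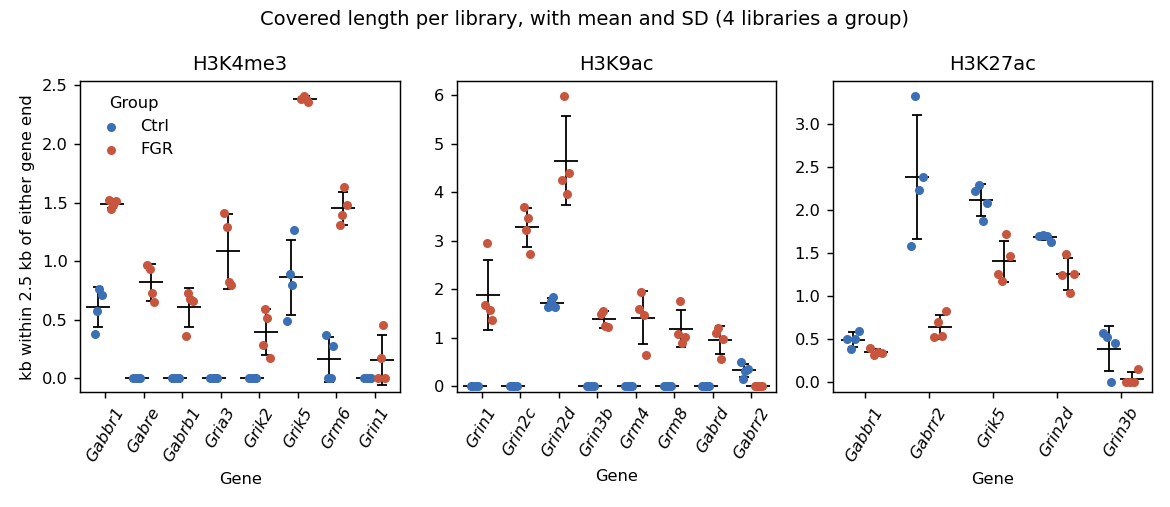
Points give peak length in kb, up to 2.5 kb from a gene's start or end, in single libraries of Ctrl (blue) and FGR (red) for 3 marks, with vertical axes that differ between panels; black bars are the mean ± SD of 4 libraries. H3K9ac of Grin1, Grin2c, Grin3b, Grm4, Grm8 and Gabrd is at 0 in all Ctrl libraries, while H3K27ac of Gabrr2, Grik5 and Grin2d is lower in every FGR library than in any Ctrl library.

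H3K9ac near the gene ends was longer in FGR at 12 of the 24 members tested and shorter at 1. The backgrounds were 28.5% with more and 30% with less of 15605 genes. Of the 12, 9 were glutamate receptor genes (of 14 tested) and 3 were GABA receptor genes (of 10 tested). The median difference over the members tested was 0.409 kb, against 0.0308 kb over all genes. After quantile normalization 9 members had more and 1 less, against 23% and 31.6%. As above, 18 of the 24 tested had no Ctrl peak and passed the filter through FGR alone. Such genes could be called only more. These counts, the median difference and the counts by subfamily below therefore describe the lists and support nothing about glutamate or GABA receptor genes.

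Of the NMDA subunit genes, 4 of the 6 tested had more H3K9ac, and Grin2d and Grin2c had the longest coverage of the members in FGR. Grin2c (chromosome 11, 115249169 to 115267297) was at 0 in all Ctrl libraries and had 3.69, 3.22, 3.46 and 2.73 kb in FGR (limma adjusted p = 5.35e-06). Its peaks lay at both ends, 1.59 kb at the 5′ end and 1.68 kb at the 3′ end on average, and 2.42 kb of the FGR mean lay inside the gene, which has Tmem104 and Fdxr as neighbours. Grin3b, for a glycine-binding subunit in a gene of 6.79 kb, was at 0 in Ctrl and had 1.5, 1.56, 1.24 and 1.23 kb in FGR (adjusted p = 1.68e-05, limma), of which 1.18 kb lay inside the gene. Grin2d had 1.63, 1.76, 1.84 and 1.64 kb in Ctrl and 4.26, 5.99, 3.97 and 4.39 kb in FGR (difference 2.94 kb, SE 0.387, limma adjusted p = 0.000297). Within the windows, its mean length beyond the gene ends went from 1.72 to 2 kb, and that inside the gene from 0 to 2.65 kb.

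Grin1 (chromosome 2, 25291177 to 25319187) was at 0 in all Ctrl libraries and had 1.67, 2.95, 1.57 and 1.37 kb in FGR (difference 1.89 kb, SE 0.307, limma adjusted p = 0.000896). All of it lay at the 3′ end, mostly in a region from 25291199 to 25295116 inside the gene. Of the FGR mean, 1.76 kb lay inside the gene and 0.132 kb beyond its end. Of the remaining NMDA genes, Grin3a had 0.254, 0.637, 0.417 and 0 kb in FGR (adjusted p = 0.0632, limma), Grin2a had 0.345, 0.355, 0 and 0 kb (adjusted p = 0.205, limma), and Grin2b had no peak near its ends.

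Among metabotropic genes, 3 of the 4 tested had more H3K9ac. Grm4, a group III receptor, was at 0 in Ctrl and had 1.6, 1.95, 1.47 and 0.654 kb in FGR (adjusted p = 0.0011, limma), at both ends of the gene. Grm8 was at 0 in Ctrl and had 1.07, 1.75, 0.901 and 1.02 kb in FGR (adjusted p = 0.000562, limma), over the promoter that also carried H3K4me3. Grm6 went from 0.363 ± 0.268 kb to 0.855 ± 0.134 kb (SD, n = 4 each; adjusted p = 0.0176, limma). Its mean length beyond the gene ends went from 0.307 kb in Ctrl to 0 kb in FGR, and that inside the gene from 0.0565 to 0.855 kb. Grm2, a group II receptor, did not pass with 0.367, 0, 0.252 and 0.317 kb (adjusted p = 0.0747, limma).

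Of the kainate genes, 2 of the 3 tested had more H3K9ac. Grik4 had 0.651, 1.03, 1.29 and 0.656 kb in Ctrl and 1.81, 2.14, 1.67 and 1.56 kb in FGR (difference 0.889 kb, SE 0.182, limma adjusted p = 0.00301), and its promoter with 42 CpG had an H3K9ac peak in all 8 libraries. Grik5 had 2.05, 1.67, 1.84 and 1.93 kb in Ctrl and 2.55, 2.46, 2 and 2.57 kb in FGR (adjusted p = 0.0153, limma), so the groups overlapped. Its length beyond the ends went from 1.87 to 1.54 kb while that inside the gene went from 0 to 0.85 kb. No AMPA gene passed, with Gria1 at 0.337, 0.374, 0 and 0.268 kb in FGR (adjusted p = 0.0682, limma) and Gria2 with a peak in a single FGR library, at 0.274 kb.

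At the GABA receptor genes, Gabrd was at 0 in Ctrl and had 1.1, 1.21, 0.557 and 0.977 kb of H3K9ac in FGR (adjusted p = 0.000521, limma). Gabre was at 0 in Ctrl and had 0.689, 0.662, 0.341 and 0.618 kb in FGR (adjusted p = 0.0013, limma), again over its promoter. Gabbr1 had 0.927, 0.914, 1.02 and 1.14 kb in Ctrl and 1.36, 1.23, 1.21 and 1.26 kb in FGR (difference 0.264 kb, SE 0.0912, limma adjusted p = 0.0338). The groups did not overlap, but the call was lost without any 1 of 5 libraries (Ctrl replicates 1, 2 and 3 and FGR replicates 1 and 4), with adjusted p values of 0.0541 to 0.0849. Gabbr2 was at 0 in Ctrl and had 0.181, 1.37, 0.614 and 0.123 kb in FGR, and did not pass (adjusted p = 0.0765, limma); without FGR replicate 4 its adjusted p was 0.0368. Gabra5 had 0.328, 0.744, 0 and 0 kb (adjusted p = 0.186, limma).

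Gabrr2, for a rho subunit of GABA-A receptors of the retina, was the member with less H3K9ac. It had 0.498, 0.153, 0.31 and 0.359 kb in Ctrl and 0 in all FGR libraries (difference -0.33 kb, SE 0.0961, limma adjusted p = 0.0164), all of it beyond the gene ends. The pattern of a peak in every Ctrl and no FGR library had a background of 0.686%. Of the regions concerned, 33053855 to 33055309 and 33098154 to 33101331 on chromosome 4 had peaks in all 8 libraries, but the FGR peaks stopped short of the window. The first of them reaches only the outer edge of the 5′ window, where Ctrl libraries had 0.305, 0, 0.098 and 0.334 kb. Most of the length in Ctrl replicates 1 and 4 therefore lay elsewhere in that window, where all FGR libraries were at 0. With windows of 5 kb the values were 3.61, 3.69, 4.1 and 3.89 kb in Ctrl and 0.963, 0.73, 0.875 and 0.759 kb in FGR (limma adjusted p = 3.04e-06). The call was lost with the 5′ end alone (adjusted p = 0.111, limma), with the stricter peak threshold (0.128) and with depth matched (0.137), and with 1 kb windows Gabrr2 did not enter the test.

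A peak in every FGR library and in no Ctrl library was found for H3K9ac at 8 members (Gabbr2, Gabrd, Gabre, Grin1, Grin2c, Grin3b, Grm4 and Grm8), against a background of 8.38%. For 6 of them the Ctrl H3K4me3 libraries had no peak either, the exceptions being Grin2c and Grm8. H3K4me3 and H3K9ac were both called more at 9 members: Gabbr1, Gabrd, Gabre, Grik4, Grik5, Grin2c, Grin2d, Grm6 and Grm8. Since H3K4me3 was called more at 95.5% of all genes tested, this count adds little to the H3K9ac calls. A share of all genes called for both marks is not given here, so the count is a description. Grin1, Grin3b and Grm4 had H3K9ac in every FGR library without H3K4me3 in every FGR library, and Gabra4, Gabra5, Gabrb1, Gria3 and Grik2 had the reverse.

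H3K27ac was measured near the ends of few receptor genes, and of the 6 tested 4 were covered less in FGR and 0 more. The background was 81.6% of 11876 genes with less and 0.185% with more, so the members again moved with most genes. Limma called 0 members more at an unadjusted p under 0.05 as well. After quantile normalization 1 member, Gabrr2, was still covered less and 0 more, against 11.3% and 12.5%.

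Gabrr2 had 1.58, 3.33, 2.23 and 2.38 kb of H3K27ac in Ctrl and 0.527, 0.691, 0.532 and 0.82 kb in FGR (difference -1.74 kb, SE 0.301, limma adjusted p = 0.000534). Of the Ctrl mean, 2.02 kb lay beyond the gene ends. Grik5 had 2.22, 2.29, 1.86 and 2.08 kb in Ctrl and 1.26, 1.17, 1.71 and 1.47 kb in FGR (adjusted p = 0.00149, limma), all on the Zfp574 side and beyond the end. Grin2d had 1.7, 1.71, 1.7 and 1.63 kb in Ctrl and 1.24, 1.49, 1.03 and 1.25 kb in FGR (adjusted p = 0.00571, limma), also beyond the ends. At these 3 genes every FGR library was below every Ctrl library, which was also so at 74% of the 11876 genes tested.

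Grin3b had 0.57, 0.522, 0 and 0.454 kb in Ctrl and 0, 0, 0 and 0.151 kb in FGR (adjusted p = 0.037, limma), at its 3′ end, which it shares with Tmem259. This call was lost without any 1 of 6 libraries (Ctrl replicates 1, 2 and 4 and FGR replicates 1, 2 and 3), with adjusted p values of 0.0682 to 0.1. Gabbr1, with 0.504, 0.378, 0.495 and 0.593 kb in Ctrl and 0.396, 0.315, 0.347 and 0.335 kb in FGR, did not pass (adjusted p = 0.17, limma). Grin1, Gria2 and Gabbr2 had no H3K27ac peak near their ends in any library. At Grin2d, H3K4me3 and H3K9ac rose and H3K27ac fell in the lists as deposited, each past the test. After quantile normalization the H3K4me3 difference at Grin2d was -0.673 kb (adjusted p = 0.000481, limma) and the H3K27ac difference was 0.396 kb (adjusted p = 0.0605, limma), both opposite in sign, while H3K9ac stayed higher (adjusted p = 7.64e-05, limma).

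Inside Grin2d, the promoter entry marks a start within the annotated gene and beyond the windows. A region of H3K27ac from 45866131 to 45866697 on chromosome 7, which overlaps the promoter shown above, had a peak in 4 Ctrl and 0 FGR libraries. On the promoter's 300 bases, H3K4me3 peaks were called in 0 Ctrl and 4 FGR libraries, and H3K9ac peaks in 3 and 4. The wider H3K4me3 region there, 45865707 to 45866998, had peaks in 2 Ctrl and 4 FGR libraries. These are counts of called peaks, with no test.

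Beyond the 2.5 kb windows, gene bodies were described without a test. H3K9ac peaks inside the body were found in every FGR library at 23 of 43 members and in every Ctrl library at 6, against 35.5% and 30.5% of all genes longer than 5 kb. For H3K4me3 these counts were 14 and 3, against 32% and 8.91%, and for H3K27ac they were 5 and 6, against 28.4% and 33.4%. H3K9ac was found in every FGR and no Ctrl library at 15 members, against a background of 7.91%. The same pattern was found for H3K4me3 at 7 members, against 12.9%, and for H3K27ac at 0, against 0.0775%. Receptor genes are long, with a median of 183 kb against 17.3 kb for all genes. Among all genes over 100 kb, H3K9ac lay inside the body in every FGR library at 62.5% and in every Ctrl library at 54.9%. For H3K4me3 these shares were 61.8% and 21.6%, and for H3K27ac 51.7% and 55.7%. The shares of genes longer than 5 kb are therefore not matched to the receptor genes in length. The pattern of every FGR and no Ctrl library was found, among genes over 100 kb, for H3K9ac at 10 of 24 members, against 11.4% of 2427 genes. For H3K4me3 it was found at 4 of 24, against 19.7%. The difference in these shares was not tested.

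Grm4 had the longest such coverage, with 5.7, 8.72, 5.74 and 3.63 kb of H3K9ac inside the body in FGR and 0 in Ctrl, including a region from 27500769 to 27503203 on chromosome 17. Gabrb1 had 3.19, 2.43, 1.57 and 2.69 kb in FGR and 0 in Ctrl, and Gabrg3, which had no peak near its ends, had 1.24, 2.89, 2.51 and 1.4 kb and 0. Grin1 had 2.4, 2.92, 2.84 and 1.48 kb inside the body in FGR and 0 in Ctrl. Grik1, Grik3 and Gabra3 showed the same pattern with FGR means of 1.14, 1.71 and 1.45 kb. Of the 13 members without any peak near their ends, 8 had H3K9ac inside the body in every FGR library, Gabra3, Gabrg1, Gabrg3, Gria4, Grik1, Grm5 and Grm7 among them.

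Gabbr2 had H3K9ac, H3K4me3 and H3K27ac inside its body. H3K9ac there measured 0.924, 1.12, 0.869 and 0.368 kb in Ctrl libraries and 5.03, 5.71, 4.98 and 1.3 kb in FGR, with FGR replicate 4 the lowest of the 4. H3K4me3 measured 0.523, 0, 0 and 0.505 kb in Ctrl and 2.12, 2.16, 2.29 and 2.14 kb in FGR. H3K27ac went the other way in its means, from 1.08 ± 0.121 kb to 0.781 ± 0.255 kb (SD, n = 4 each), and the groups overlapped.

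Grik4 and Gabrr2 had the longest H3K27ac inside the body in Ctrl. Grik4 had 3.85, 4.29, 3.58 and 3.52 kb in Ctrl and 2.38, 2.85, 1.79 and 1.66 kb in FGR, and Gabrr2 had 5, 4.04, 3.75 and 4.55 kb in Ctrl and 2.73, 3.13, 1.67 and 1.81 kb in FGR. The groups did not overlap at either gene. Grm5, a group I receptor coupled to calcium release, had a region at 87925391 to 87926356 on chromosome 7 with H3K27ac in all 8 libraries. At the same place H3K9ac was called in 4 Ctrl and 0 FGR libraries, the single region of this kind in the receptor gene bodies, while H3K4me3 was called in 0 Ctrl and 4 FGR libraries. Elsewhere in Grm5, regions at 87902688 to 87903874 and 88129971 to 88130837 had H3K9ac in 4 FGR and 0 Ctrl libraries.

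**Figure D3:**
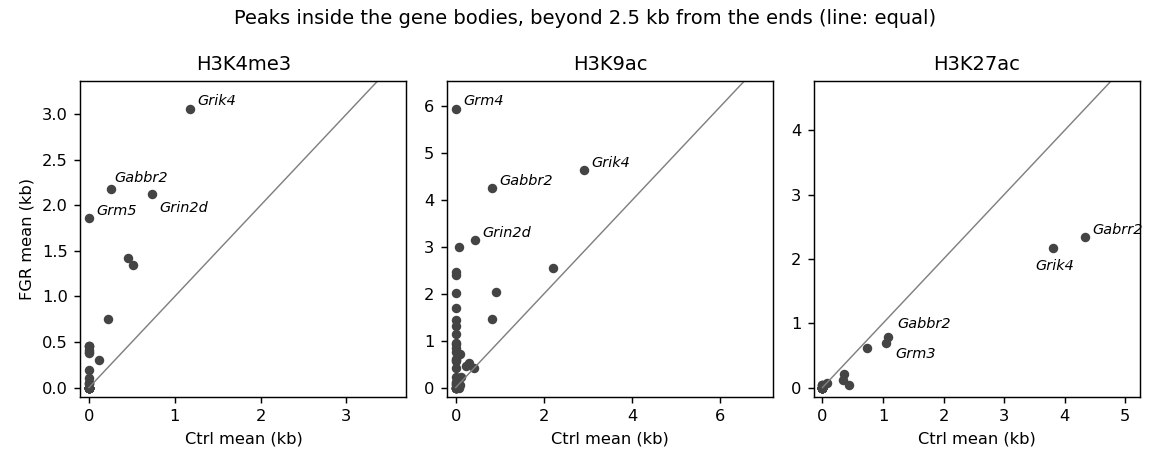
Each point is 1 receptor gene, with the mean kb of called peaks inside the gene body beyond 2.5 kb from its ends in Ctrl (x axis) and FGR (y axis), over 4 libraries a group; the grey line marks equal values, and axes differ between marks. Genes with H3K9ac lie mostly along the left edge, at or near 0 in Ctrl, and the longest H3K27ac values, at Grik4 and Gabrr2, lie below the line.

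Receptor promoters with H3K4me3 in every FGR library had more CpG in the median than those with none, but the ranges overlapped and no test was run. Of 30 members with a promoter entry (the one with most CpG taken for each), 8 had an H3K4me3 peak on it in all 4 FGR libraries, with a median of 24.5 CpG and a range of 4 to 42. Another 18 had none in FGR, with a median of 12 and a range of 0 to 50. Over all 21045 promoters the median was 13. Grik3 (50 CpG) and Grin1 (33 CpG) were CpG-rich without a peak in FGR, and Grm6 had a peak in all 4 with 4 CpG. In Ctrl, no member had an H3K4me3 peak on its promoter in all 4 libraries. The Ctrl H3K4me3 lists were shorter, with 16598 to 18391 peaks against 43175 to 49045 in FGR, and no share over all promoters is given here.

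Short motifs of factors known to act on neuronal and microglial genes were searched on both strands of the 37 promoter entries of members. The left part of the REST site, TTCAGCACC, occurred in 1 entry, that of Grm2, and in 0.418% of all promoters. A PU.1 motif, GAGGAAGT, occurred in 0 member entries and in 3.15% of all promoters. A match describes these letters in this window and nothing more.

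**Figure D4:**
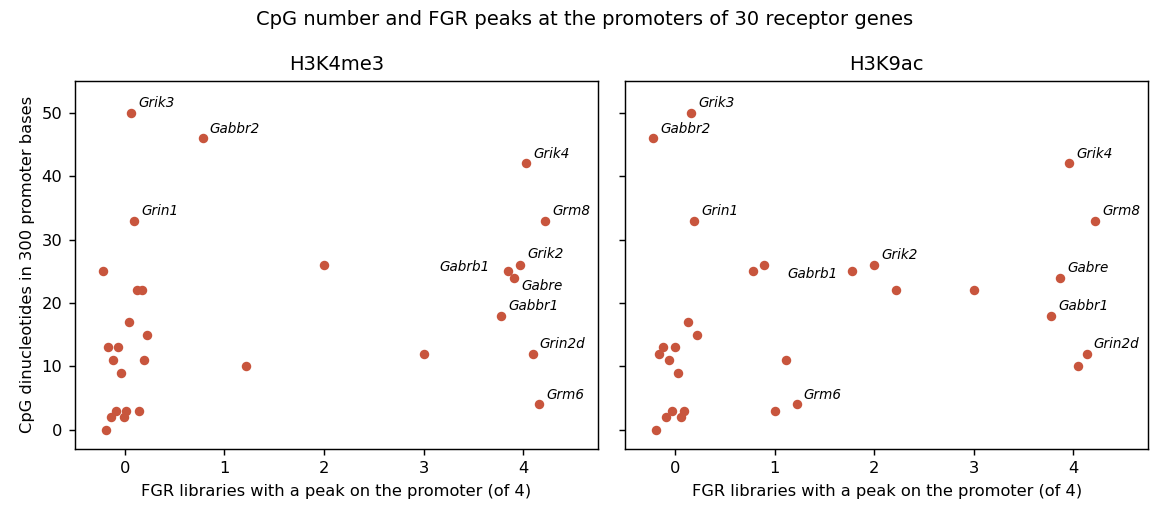
Each point is 1 of 30 receptor genes with a promoter entry, placed by the number of FGR libraries, from 0 to 4, with a peak on the promoter (x axis, points spread sideways) and by the number of CpG dinucleotides in 300 bases (y axis). The 8 promoters with H3K4me3 in all 4 FGR libraries range from 4 to 42 CpG, and Grin1 and Grik3 are CpG-rich with none.

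H3K9me3 was compared as percent of the gene body under broad peaks in replicates 1 to 3. In the lists as deposited, 32 of 38 members tested had less of the body covered in FGR and 0 had more, against backgrounds of 62.7% and 0.12% of 12489 genes. Limma called 33 members less and 0 more at an unadjusted p under 0.05. However, the Ctrl lists reached down to a −log10 p of 1 and the FGR lists only to 3.42 to 3.64, so the groups were called at different thresholds. With both held to a −log10 p of at least 4, a threshold chosen after seeing the data, 8 of 18 members tested had more of the body covered in FGR and 0 less, against 40.1% and 0.255% of 1957 genes. Every Ctrl library was at 0% at all members there, so the 18 entered the test through FGR alone, a call of less was not possible, and the count is a description. After quantile normalization of the deposited lists, 10 members had more and 8 less, against 14.6% and 11.5%. The direction therefore depended on threshold and scaling, and no direction is drawn for these genes.

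Within the Ctrl lists, which share a threshold, the highest values were at long GABA and glutamate receptor genes. That threshold was lenient: the lowest and the median −log10 q were 0 in each Ctrl list. With a −log10 p of at least 4, every member was at 0% in Ctrl. The values below therefore describe weak peaks of the deposited lists. Gabrg3 (671 kb) had 35.4, 31.6 and 22.4% of its body under peaks, and Grm7 (922 kb) had 33.6, 26.7 and 16.9%. In both, replicate 1 was highest and replicate 3 lowest. Across the 43 members, length and mean Ctrl percent had a Spearman rho of 0.641, as a description of genes measured in the same libraries. Members over 100 kb had a median of 13.4% (24 genes), against 9.56% for all genes of that length, and shorter members had 2.32% against 2.14%.

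In the FGR lists the highest values were 1.43, 0.959 and 1.49% at Gabrg3 and 0.852, 1.51 and 1.16% at Gabrg1, apart from Grin3b, with 5.93, 6.83 and 0%. At the shared threshold of 4, with Ctrl at 0%, FGR libraries had 1.38, 0.959 and 1.29% at Gabrg3 and 0.638, 0.495 and 0.607% at Gria4, for an AMPA subunit. Gabrb1, Gabrg1, Gria2, Grik1 and Grin3a were also among the members called. Gabre, Grik5, Grin2c and Grm2 had no H3K9me3 peak in the body in any of the 6 libraries.

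**Figure D5:**
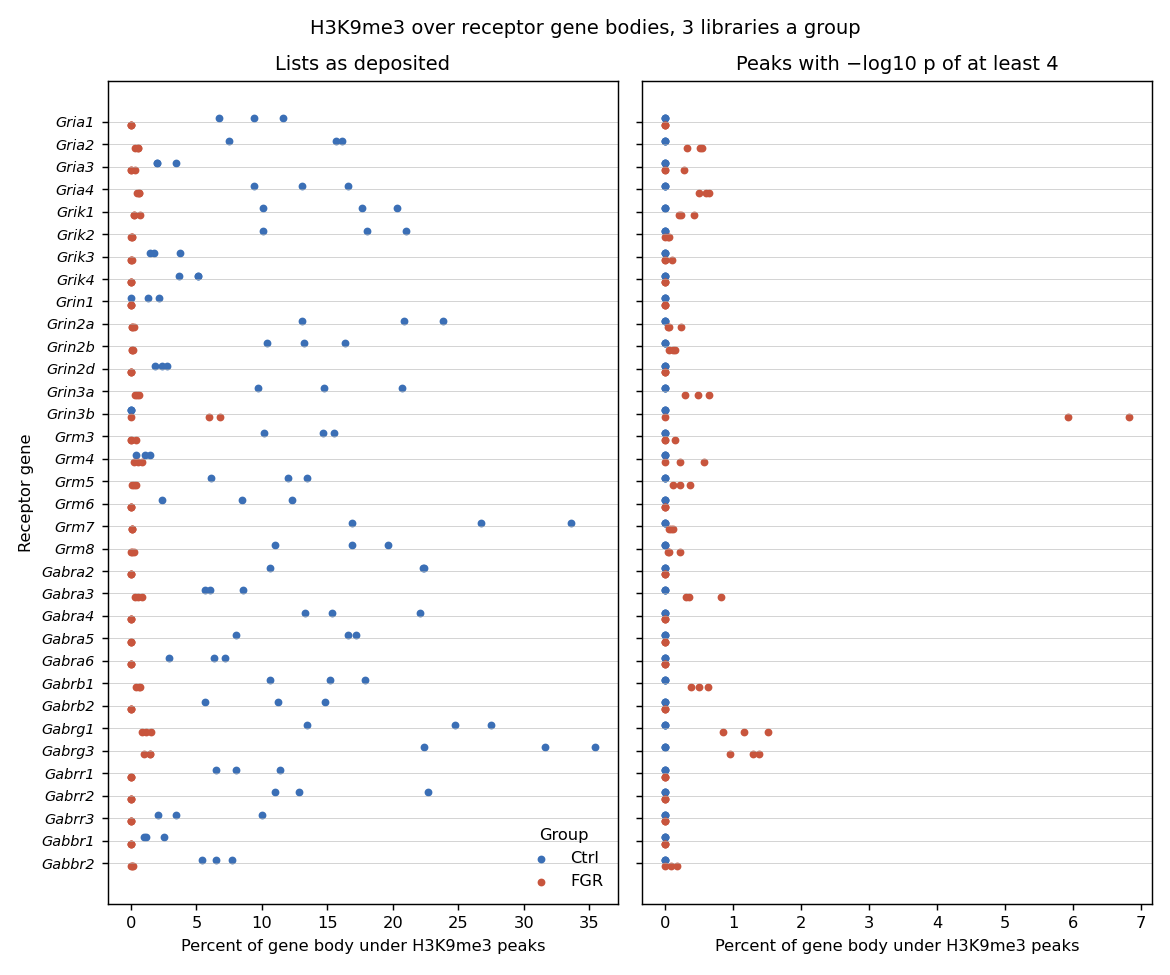
Points are the percent of the gene body under H3K9me3 peaks in single libraries of Ctrl (blue) and FGR (red), 3 libraries a group, for 34 of the 38 receptor genes tested; the horizontal scales of the 2 panels differ. With the lists as deposited Ctrl values reach 35.4% at Gabrg3, and with peaks of a −log10 p of at least 4 every Ctrl point is at 0% and FGR points remain at some genes.

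Genes that work with these receptors were counted beside them. For H3K9ac, 5 of 10 tested genes of glutamate and GABA synthesis and transport were covered more in FGR and 2 less, and 16 of 26 tested postsynaptic partners were covered more and 2 less, against 28.5% more and 30% less of all genes tested. Slc1a3, a glutamate transporter of glia, was covered less, with a mean of 3.4 kb in Ctrl against 1.14 kb in FGR, and so was Glul, glutamine synthetase, with means of 4.8 and 2.78 kb. Shank1, a scaffold of excitatory synapses, went from 0.121 to 1.81 kb, and Cnih2, a partner of AMPA receptors, from 0.148 to 2.5 kb. For H3K4me3, 6 of 7 and 17 of 20 were covered more and 0 less, against 95.5% more of all genes, and for H3K27ac 3 of 4 and 8 of 10 were covered less and 0 more, against 81.6% less. These H3K4me3 and H3K27ac shares came from few genes and lay near or below those of all genes, and the differences were not tested. For H3K9ac too, a gene with no Ctrl peak could enter the test only through FGR.

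Markers of neurons and of other cell types were counted in the same libraries. A marker with no Ctrl peak could enter the test only through FGR and be called only more, so the counts are a description. For H3K9ac, 6 of the 8 tested of 14 neuronal markers were covered more in FGR, against 28.5% of all genes, and their summed coverage lay between 0.325 and 0.709 kb in Ctrl libraries and between 6.51 and 9.74 kb in FGR libraries. Snap25 and Gad1 were at 0 in all 8 libraries, and Camk2a, Slc17a7 and the Gad genes are also in the lists of related genes. For H3K4me3, 6 of the 6 tested were covered more, against 95.5% of all genes, with sums of 0 to 1.025 kb and 3.34 to 4.94 kb, and Syt1, Snap25, Nefl, Stmn2, Camk2a and Gad1 were at 0 in all 8 libraries. Oligodendrocyte lineage markers had H3K9ac sums of 1.82 to 4.22 kb in Ctrl and 6.65 to 12.3 kb in FGR, astrocyte markers 5.01 to 6.9 kb and 5.61 to 8.45 kb, and microglia markers 62.6 to 66.9 kb and 39.5 to 44.8 kb. The part of these shifts, and of the lower background in FGR, in the receptor gene results was not tested.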

How the data were processed

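Peak lists of 32 libraries, 1 list per library, were used as the authors deposited them. Per the submitters' processing notes, the tools, with no roles given, included MACS2 2.2.7.1, DiffBind 3.12.0, the trimmer Trim Galore 0.6.5, the aligner Bowtie2 2.4.5 and SAMtools 1.3.1, on mm10. Each deposited peak has a score, a fold enrichment over local background (a ratio), a −log10 p and a −log10 q. The sources used here do not give caller options or control libraries.

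Covered kb was the merged length of peaks within 2.5 kb of either end of each RefSeq gene (GRCm38.p6), and H3K9me3 was taken as percent of each gene's body. Replicate 4 of H3K9me3 has narrow peaks and was left out of the comparison. Each mark was tested FGR against Ctrl, two-sided, with limma 3.58.1 in R 4.3.3 (lmFit and eBayes), on genes with a peak in at least 2 libraries, with Benjamini-Hochberg adjustment at 0.05. The code was tested on simulated data. Intervals were read with Python 3.11.15, numpy 2.4.6 and pandas 2.3.3.

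The lists carry no read counts, so depth is unknown, and covered length depends on depth and on the peak threshold. Other windows, thresholds, normalizations, equal list lengths, a replicate block and leaving out each library were tried. The members and gene lists were chosen with earlier results of these data known. Library values are given, per mark, for up to 6 members with the smallest p in each direction, members whose peaks occur in all libraries of 1 group and in none of the other, the 3 with the longest Ctrl coverage, and Grin1, Gria2, Gabbr1 and Gabbr2. A few members enter the counts but are not reported here by name. Library values of other members, and all those inside gene bodies, were chosen after their values were seen.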

Additional observations from a re-analysis of the deposited data

Results flagged for a closer look

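Over all members that can be named and the 3 marks near gene ends, there were 74 groups of 4 libraries with differing values. In 14 of them, the highest or lowest library stood apart from the other 3 by more than Dixon's 95% critical value. Chance alone does this in about 1 in 20 groups of normally distributed values, a rate that does not hold where 3 libraries are at 0 kb. A single peak then always passes the critical value, whatever its length. In 12 of the 14, a single library had a peak and the other 3 of its group were at 0 kb. For H3K4me3 in FGR, these were Gabrb2 in replicate 1 (0.191 kb), Grin3b in replicate 3 (0.188 kb) and Grm3 in replicate 2 (0.182 kb). For H3K9ac in FGR, they were Gabra2 (0.464 kb), Gria2 (0.274 kb), Gria3 (0.332 kb) and Grm3 (0.321 kb) in replicate 2 and Grik3 in replicate 3 (0.252 kb). For H3K27ac, they were Grik4 in Ctrl replicate 2 (0.324 kb) and FGR replicate 1 (0.148 kb), Grin2c in FGR replicate 1 (0.229 kb) and Grin3b in FGR replicate 4 (0.151 kb). H3K4me3 at Grm8 was 0.946 kb in FGR replicate 1, against 1.15 to 1.16 kb in the other FGR libraries. H3K27ac at Grin2d was 1.63 kb in Ctrl replicate 4, against 1.7 to 1.71 kb in the other Ctrl libraries.

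The narrow H3K9me3 lists of replicate 4, which entered no comparison, had a peak in the body of 14 of the 43 receptor genes in FGR and of 0 in Ctrl. The whole Ctrl list held 257 peaks and the FGR list 11204. Few Ctrl peaks could thus fall in any gene, and these counts describe the lists and give no direction for receptor genes. The highest share of a body covered was 0.501%, at Gabrg1.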

How the results depend on the processing

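Counts of receptor genes called depended on how peaks were filtered and scaled. For H3K4me3, the 16 with more became 4 with lists of equal length, 1 after quantile normalization and 9 for presence of a peak, and the 0 with less became 8 after quantile normalization. For H3K9ac, the 1 with less (Gabrr2) became 0 with 1 kb windows, with 5′ ends alone, with a stricter threshold and with depth matched. For H3K27ac, the 4 with less became 1 with 1 kb windows, 2 with 5′ ends alone, 1 after quantile normalization and 0 for presence. For H3K9me3, the 32 with less became 0 with the stricter threshold, equal lists, the common threshold or replicate 4 added, 8 after quantile normalization and 9 at gene ends, and the 0 with more became 8, 10 and 8 with the stricter threshold, quantile normalization and the common threshold. Depth matching and the common threshold were chosen after seeing the data. Among members that can be named, signs turned after quantile normalization, in kb, for H3K4me3 at Gabbr1 (-0.0417), Gabbr2 (-0.199), Gabra4 and Gabrb1 (-0.0222), Gabra5 (-0.227), Gabrd (-0.221), Gabrr2 (-0.254), Gria2 (-0.272), Grik2 (-0.132), Grin1 (-0.252), Grin2c (-0.245), Grin2d (-0.673) and Grm8 (-0.0804), for H3K9ac at Gabra4 and Gabrb1 (-0.0356), Gabra5 (-0.0409), Gabrr3 (-0.112), Gria1 (-0.0616), Grik2 (-0.0942), Grin2a (-0.1003), Grin3a (-0.0242) and Grm2 (-0.0462), and for H3K27ac at Gabbr1 (0.283), Grik4 (0.0642), Grik5 (0.233) and Grin2d (0.396). With lists of equal length the sign turned for H3K4me3 at Grin2c (-0.188). For H3K9me3, in percent of the body, signs turned after quantile normalization at Gabbr1 (1.8), Gabbr2 (3.43), Gabra3 (9.04), Gabrb1 (5.25), Gabrg1 (6.93), Gabrg3 (3.25), Gabrr3 (0.0757), Gria2 (5.29), Gria3 (3.33), Gria4 (6.25), Grik1 (2.75), Grik3 (3.1), Grik4 (0.232), Grin1 (1.93), Grin2b (2.16), Grin2d (1.38), Grin3a (4.18), Grm4 (11.8), Grm5 (4.87) and Grm8 (0.895). They turned with lists of equal length at Gabrg1 (0.478), Gabrg3 (0.564), Gria4 (0.326), Grin3a (0.388) and Grm4 (0.265). With the stricter threshold they turned at Gabbr2 (0.0881), Gabra3 (0.553), Gabrb1 (0.565), Gabrg1 (1.17), Gabrg3 (1.28), Gria2 (0.458), Gria4 (0.58), Grik1 (0.369), Grik2 (0.0474), Grin2a (0.113), Grin2b (0.104), Grin3a (0.469), Grm4 (0.551), Grm5 (0.231), Grm7 (0.0867) and Grm8 (0.109). With the common threshold they turned at Gabbr2 (0.0881), Gabra3 (0.49), Gabrb1 (0.502), Gabrg1 (1.17), Gabrg3 (1.21), Gria2 (0.458), Gria4 (0.58), Grik1 (0.281), Grik2 (0.0349), Grin2a (0.113), Grin2b (0.104), Grin3a (0.469), Grm4 (0.265), Grm5 (0.231), Grm7 (0.0867) and Grm8 (0.101). The cause was not tested. Leaving out 1 library gave 16 to 16 with more and 0 to 0 with less for H3K4me3, 11 to 13 and 1 to 1 for H3K9ac, 0 to 0 and 3 to 4 for H3K27ac, and 0 to 1 and 24 to 35 for H3K9me3. Replicate numbers did not pair the samples (same-number correlations of -0.021 to 0.0337 over all marks), and the replicate block gave 14 with more and 0 less for H3K4me3, 11 and 1 for H3K9ac, 0 and 4 for H3K27ac, and 0 and 27 for H3K9me3. For no mark did every sample correlate best with its own number.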
